A study of Mus musculus with 375 samples.

Results

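The 10 genes described here are the Notch receptors Notch1 and Notch2, the ligands Dll1, Dll4 and Jag1, the transcription factor Rbpj, the Hes family members Hes1, Hes5 and Hes6, and the secretory fate factor Atoh1. They were chosen by name from pathway knowledge, and all 10 were found among the 23420 genes of the table. The cells came from mouse small intestine, were sorted by flow cytometry as Lgr5+, a label of the stem cells at the crypt base, and were sequenced one per well by Smart-seq2, a full-length cDNA method. Their donors ate a high-fat diet (HFD) or a control diet, and the titles divide the cells into the sets HFD 1, HFD 2, control 1 and control 2. The labels give no strain, age, sex or length of feeding, nor whether each set is a mouse of its own. All p-values therefore measure the spread among these 4 sets, which may be technical. Of 375 cells, 367 had at least 2000 genes above 0 TPM and were used, 91 and 92 in HFD 1 and HFD 2 and 93 and 91 in control 1 and control 2.

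Notch signalling passes between touching cells: a ligand of the Delta or Jagged family on one cell releases the intracellular part of the receptor on its neighbour, which joins Rbpj in the nucleus and switches on genes such as Hes1. Hes1 represses Atoh1, so a crypt cell that receives the signal tends to stay a progenitor or become absorptive. A cell that escapes it turns on Atoh1, the factor needed for goblet, Paneth and enteroendocrine cells, and with it the ligands Dll1 and Dll4, which hold its neighbours in the receiving state.

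The 250 bases before the RefSeq transcription start (GRCm38.p6) are shown for Hes5, whose promoter held the core letters of the Rbpj motif, and for Atoh1, Dll1, Dll4 and Hes6, which were compared by co-detection below. Entries were matched for 9 of the 10 genes, all but Hes1. In the GENCODE annotation of mm10, Hes1 lies at chr16:30064384-30067796 on the plus strand, Atoh1 at chr6:64729125-64731245 on the plus strand and Dll1 at chr17:15367354-15376872 on the minus strand. Capitals mark TGGGAA on either strand in Hes5, and CANNTG, the E-box read by factors of the Atoh1 class, in the other 4.
Hes5 (chr4:154960673-154960922, plus strand): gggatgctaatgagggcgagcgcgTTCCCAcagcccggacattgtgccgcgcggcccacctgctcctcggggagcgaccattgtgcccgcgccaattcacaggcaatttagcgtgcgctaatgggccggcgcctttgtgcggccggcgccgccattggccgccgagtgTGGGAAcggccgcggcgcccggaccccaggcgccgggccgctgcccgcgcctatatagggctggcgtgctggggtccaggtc
Atoh1 (chr6:64728875-64729124, plus strand): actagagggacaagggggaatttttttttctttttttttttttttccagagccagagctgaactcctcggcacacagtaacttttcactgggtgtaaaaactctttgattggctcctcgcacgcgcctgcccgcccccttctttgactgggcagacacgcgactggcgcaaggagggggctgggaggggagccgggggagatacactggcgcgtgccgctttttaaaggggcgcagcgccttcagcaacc
Dll1 (chr17:15376933-15377182, minus strand): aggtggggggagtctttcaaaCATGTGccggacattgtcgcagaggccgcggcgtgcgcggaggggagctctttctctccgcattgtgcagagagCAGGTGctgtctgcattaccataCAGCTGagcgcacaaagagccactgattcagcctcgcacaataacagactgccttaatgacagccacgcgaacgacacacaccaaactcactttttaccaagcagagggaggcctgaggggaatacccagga
Dll4 (chr2:119325534-119325783, plus strand): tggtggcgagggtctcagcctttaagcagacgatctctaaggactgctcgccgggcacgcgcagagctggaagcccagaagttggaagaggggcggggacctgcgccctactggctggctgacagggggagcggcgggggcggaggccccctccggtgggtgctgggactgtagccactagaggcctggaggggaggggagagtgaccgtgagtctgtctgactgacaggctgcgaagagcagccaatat
Hes6 (chr1:91414039-91414288, minus strand): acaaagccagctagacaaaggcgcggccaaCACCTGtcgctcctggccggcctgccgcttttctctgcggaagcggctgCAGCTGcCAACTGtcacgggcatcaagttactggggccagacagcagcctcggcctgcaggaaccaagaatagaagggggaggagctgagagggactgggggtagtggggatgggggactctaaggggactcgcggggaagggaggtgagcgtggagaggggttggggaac
TGGGAA occurred 2 times in the Hes5 window and 2 times in that of Rbpj, and in none of the other 7 windows. Of all 32851 promoter windows of this length, 21.6% held it. CANNTG occurred 3 times each before Dll1 and Hes6, 1 time each before Hes5 and Jag1 and 2 times before Rbpj, against 66.2% of all windows with at least 1. The Atoh1 and Dll4 windows held no CANNTG. The windows of Rbpj and Notch1 lay 124194 and 12841 bases from the GENCODE starts of those genes. These counts are matches of letters and say nothing of binding.

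The sorted cells carried the stem cell transcripts. Lgr5 was held, meaning present at 1 TPM or more, by 87 and 87 cells of HFD 1 and HFD 2 and by 89 and 85 cells of control 1 and control 2. Ptprc, which marks leukocytes, was held by 1 cell in all, and the endothelial marker Pecam1 by at most 2 cells of any set. Counting markers at 10 TPM or more, at least 3 of 8 goblet markers were present in 8 and 6 cells of HFD 1 and HFD 2 and in 5 and 4 cells of control 1 and control 2. Cells with at least 3 of 8 Paneth markers numbered 15 and 10 in the HFD sets and 6 and 1 in the control sets. The median number of genes per cell was 6857 and 6348.5 in the HFD sets and 6895 and 6130 in the control sets. Read depth cannot be had from TPM and is unknown here.

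Among the receptors, Notch1 was held by most cells: 86 and 83 in HFD 1 and HFD 2, and 91 and 85 in control 1 and control 2. Its mean level was 69.4 and 37.8 TPM in HFD 1 and HFD 2 and 56.2 and 38.3 TPM in control 1 and control 2. The diets overlapped, and the number 2 sets were the lower ones under both diets. Notch2, the second receptor of the crypt, averaged 25.1 and 16.1 TPM in the HFD sets and 30.6 and 25.4 TPM in the control sets. Here both HFD sets lay below both control sets, by a small margin, where the sets of 41.8% of all genes did not overlap. The single gene Rn45s took 26.9% and 18.6% of all TPM in HFD 1 and HFD 2. It took 39.1% and 24.6% in control 1 and control 2. Whether the Notch2 sets stay apart with Rn45s left out was not tested. In TPM, which is per transcript length, Notch1 exceeded Notch2 in all 4 sets, by a mean of 1.01 on the log2(TPM + 1) scale (SD 0.38, n = 4).

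The ligands were held by fewer cells. Dll1 was held by 27 and 24 cells of the HFD sets and by 31 and 29 cells of the control sets, with means of 26.0 and 20.5 TPM in HFD 1 and HFD 2 and 23.1 and 16.3 TPM in control 1 and control 2. Dll4 was held by 12 and 10 cells in the HFD sets and by 13 and 6 cells in the control sets, at means of 8.70 and 5.34 TPM and of 6.97 and 2.73 TPM in the same order of sets. Jag1, a ligand of the other family, was close to the lower end of detection, at 0.758 and 1.57 TPM in HFD 1 and HFD 2 and 0.970 and 0.907 TPM in control 1 and control 2. The mean levels of all 3 ligands overlapped between the diets. The shares of holding cells did not overlap for Dll1, at 29.7% and 26.1% in the HFD sets against 33.3% and 31.9% in the control sets, or for Jag1, at 15.4% and 15.2% against 8.60% and 9.89% (exact permutation p = 0.33 each, the smallest possible). Those of Hes1, Hes5 and Hes6 did not overlap either. How many of all genes do so by share was not counted. By mean level the sets of 41.8% of all genes did not overlap. A single cell could hold much ligand: the highest Dll1 values were 514.67 and 689.01 TPM in HFD 1 and HFD 2 and 779.64 and 430.8 TPM in control 1 and control 2.

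Rbpj, the DNA-binding partner of the cleaved receptor, averaged 15.7 and 8.08 TPM in HFD 1 and HFD 2 and 16.8 and 12.8 TPM in control 1 and control 2, again overlapping. Hes1, its best known target, was held by 72 and 68 cells of the HFD sets and 67 and 66 cells of the control sets. Its means were 42.8 and 73.9 TPM in HFD 1 and HFD 2 and 34.8 and 53.6 TPM in control 1 and control 2, so the number 2 set was higher under each diet and the diets overlapped. Its cell medians, at 30.56 and 47.5 TPM in the HFD sets and 14.75 and 29.84 TPM in the control sets, did not overlap, but HFD 1 and control 2 lay close together. How many of all genes do so by median was not counted. By mean level the sets of 41.8% of all genes did not overlap. Hes5, another direct target, was found in 1 and 2 cells of HFD 1 and HFD 2 (1.10% and 2.17%), and in 0 of 93 and 0 of 91 cells of control 1 and control 2, which allows shares of up to 3.23% and 3.30%, taken as 3 cells of each total. Those counts cannot be told apart at this number of cells.

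Hes6, a family member known to counteract Hes1 in neural progenitors and linked to secretory progenitors, was the highest of the 10 genes. It averaged 113 and 106 TPM in HFD 1 and HFD 2 and 57.5 and 55.2 TPM in control 1 and control 2. Both HFD sets lay above both control sets, where the sets of 41.8% of all genes did not overlap. Cells holding it numbered 77 and 74 in the HFD sets and 72 and 59 in the control sets. Atoh1 was the rarest after Hes5, held by 8 and 3 cells of HFD 1 and HFD 2 and by 5 and 3 cells of control 1 and control 2. Its means of 25 and 4.30 TPM in the HFD sets and 8.25 and 2.47 TPM in the control sets overlapped and rested on those few cells.

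In descending order of mean log2 level the genes ran Hes6, Hes1, Notch1, Notch2, Dll1, Rbpj, Atoh1, Dll4, Jag1 and Hes5. These steps of that order held in all 4 sets: Hes6 over Hes1, Notch1 over Notch2, Dll1 over Rbpj and Dll4 over Jag1. Hes1 and Notch1 exchanged places between sets (mean difference 0.02, SD 0.83), as did Notch2 and Dll1 (0.15, SD 0.42) and Atoh1 and Dll4 (0.32, SD 0.76). Rbpj was above Atoh1, and Jag1 above Hes5, in 3 of the 4 sets.

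**Figure D1:**
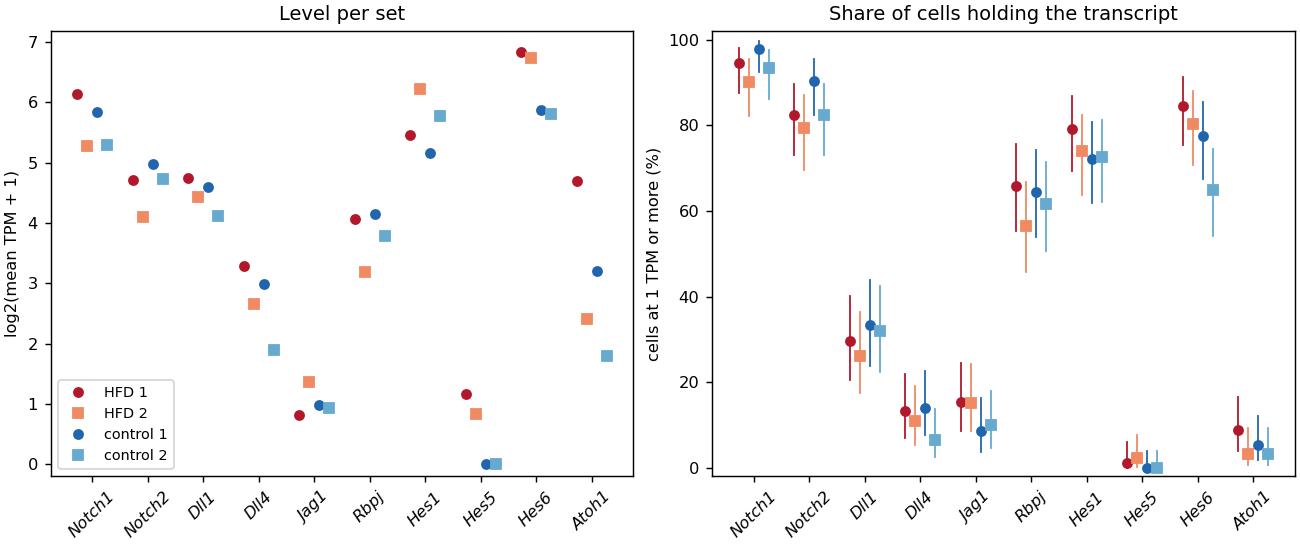
Left, log2(mean TPM + 1) of each gene in HFD 1, HFD 2, control 1 and control 2 (91, 92, 93 and 91 cells). Right, the share of cells at 1 TPM or more in percent, with 95% Clopper-Pearson intervals that cover counting error only. On the left the diets do not overlap for Hes6, for Notch2 by a small margin, and for Hes5, which few cells held. By mean level the sets of 41.8% of all genes did not overlap. Those of Notch1, the ligands, Rbpj, Hes1 and Atoh1 overlap.

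The first question was which Notch genes the 19 Atoh1-holding cells carried, set against the other 348 cells within each set. Both Delta ligands were higher in the Atoh1-holding cells, by more than any other tested member. Dll1 averaged 219 and 335 TPM in Atoh1-holding cells of HFD 1 and HFD 2, and 247 and 58.5 TPM in those of control 1 and control 2, against 7.39, 9.95, 10.4 and 14.9 TPM in the other cells of the same 4 sets. Dll4 averaged 80.3 and 119 TPM in Atoh1-holding cells of HFD 1 and HFD 2, and 69.8 and 46.3 TPM in those of control 1 and control 2, against 1.81, 1.5, 3.40 and 1.24 TPM in the other cells. For both genes, each mean of Atoh1-holding cells lay above each mean of other cells.

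Fitted over all genes with the set as a block, the log2 difference was 4.0 for Dll1 (SE 0.51, limma adjusted p = 0.0174) and 4.71 for Dll4 (SE 0.55, limma adjusted p = 0.0126). These were 2 of the 8 tested members, where 0.147% of all 11589 genes were called, 0.129% higher and 0.0173% lower. The calls were lost on leaving out HFD 1 (adjusted p = 0.158 for Dll1 and 0.143 for Dll4), HFD 2 (0.132 and 0.122) or control 1 (0.0914 and 0.0607), with log2 differences of 3.69 to 4.70 for Dll1 and 4.42 to 4.95 for Dll4 over all 4 omissions. They were also lost without the cells carrying 3 or more goblet or Paneth markers (log2 0.28, adjusted p = 0.941 for Dll1 and log2 2.60, adjusted p = 0.361 for Dll4). That left 3 and 1 Atoh1-holding cells in HFD 1 and HFD 2 and 2 and 2 in control 1 and control 2. Neither gene was called by limma without its mean-variance trend or with no filter on low genes. Of 18 settings, Dll1 was called in 10 and Dll4 in 12.

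The other members did not pass this test. Hes6 was higher in all 4 sets, by 1.04 (SE 0.31, limma adjusted p = 0.242), where 3.44% of all genes were higher in every set. Notch1 and Notch2 were lower in all 4 sets, by log2 values of −1.14 (SE 0.52, adjusted p = 0.444) and −0.82 (SE 0.50, adjusted p = 0.576), where 14.2% of all genes were lower in every set. Hes1 differed by −0.99 (SE 0.50, limma adjusted p = 0.491), and was lower in 3 of 4 sets. With 1 set left out it ran from −1.35 without HFD 2 to −0.42 without HFD 1. It was −0.02 without the marked secretory cells and −3.46 with Atoh1 counted from 10 TPM, not called in any of 18 settings. It averaged 6.21 and 78.1 TPM in Atoh1-holding cells of HFD 1 and HFD 2, and 17.5 and 42.5 TPM in those of control 1 and control 2, against 46.4, 73.7, 35.8 and 54.0 TPM in the other cells. In HFD 2 the mean rested on 1 cell with 232.94 TPM. Rbpj (−0.44, SE 0.63) and Jag1 (0.13, SE 0.67) had no common direction over the sets.

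Beyond the members, 13 genes rose and 2 fell with Atoh1. The 5 largest rises, Dll4 included, were Fcgbp, a mucus component (log2 7.32, SE 0.66), Tff3, the goblet trefoil peptide (6.98, SE 0.52), Selm, a selenoprotein of the endoplasmic reticulum (4.90, SE 0.69), Dll4, and Ern2, the stress sensor of mucus-making cells (4.64, SE 0.60), all with limma adjusted p values of 0.0246 or less. The 2 genes that fell were Olfm4, a secreted protein of crypt base stem cells (−1.63, SE 0.25, limma adjusted p = 0.0359), and Oat, a mitochondrial aminotransferase (−1.47, SE 0.20, limma adjusted p = 0.0205). Fcgbp and Tff3 stayed called with any 1 set left out. Selm and Ern2 did not without HFD 1 (adjusted p = 0.337 and 0.269), HFD 2 (0.237 and 0.132) or control 1 (0.150 and 0.0914), nor Olfm4 without HFD 1 (0.105), HFD 2 (0.293) or control 1 (0.0504), nor Oat without HFD 1 (0.158) or HFD 2 (0.190). Of 14 tested secretory fate genes, 2 were called, Dll1 and Dll4, and the list's median was 1.51 against −0.33 for all genes. Of 31 tested Notch pathway genes the same pair were called, with a median of −0.22. Among cells without Atoh1, 9 of the secretory fate genes averaged 1 TPM or more. Some of the 14 thus entered the fit only through the Atoh1-holding cells, which makes the median of 1.51 a description.

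**Figure D2:**
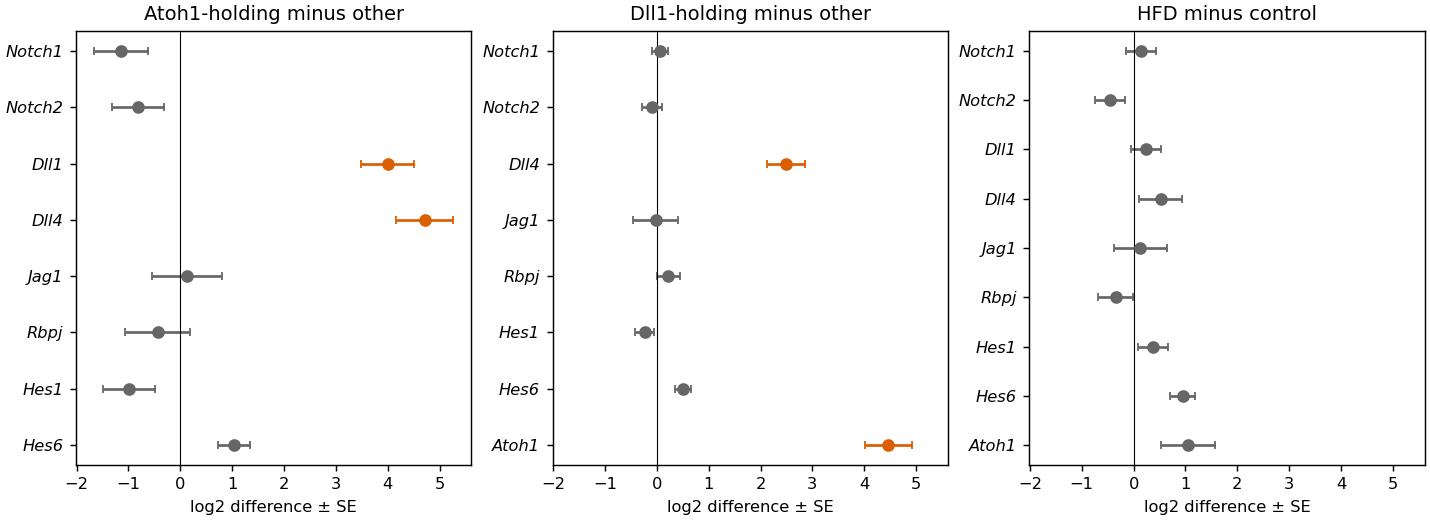
Log2 differences with standard errors from the 3 fits: Atoh1-holding minus other cells, Dll1-holding minus other cells, and HFD minus control over all cells. Orange points passed an adjusted p of 0.05 over all genes and grey points did not. Dll1 and Dll4 stand far right in the first panel, Dll4 and Atoh1 in the second (Atoh1 there as a description), and no gene is orange in the third.

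The second question was whether Hes1 and Atoh1 excluded each other. Hes1 was held by 2 of 8 and 2 of 3 Atoh1-holding cells of HFD 1 and HFD 2, and by 2 of 5 and 3 of 3 of those in control 1 and control 2. In the other cells the shares were 84.3% and 74.2% in the HFD sets and 73.9% and 71.6% in the control sets. The share was lower with Atoh1 in 3 of the 4 sets and higher in control 2. Pooled over sets as a description, 9 of 19 Atoh1-holding cells held Hes1 (47.4%, 95% interval 24.4 to 71.1), against 264 of 348 others (75.9%, 95% interval 71.0 to 80.3). The mean gap over sets was −18.1 percentage points (SD 37.5, n = 4; exact two-sided sign-flip p = 0.375, where 4 sets allow no p below 0.13). That mean depended on single sets, at −4.32 without HFD 1 and −33.6 without control 2. It was −37.7 in the interquartile range of genes per cell, −41.7 with holding set at 10 TPM and −6.15 without the marked secretory cells, with exact p values of 0.25 to 0.875. The gap was −59.3 and −7.49 points in HFD 1 and HFD 2, and −33.9 and 28.4 points in control 1 and control 2. The difference of the gap between the diets was −30.7 points (exact permutation p = 0.667, smallest possible 0.33).

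Atoh1-holding cells were not alike. Divided at 100 TPM, a level chosen after the values were seen, 8 cells held Atoh1 at 142.20 TPM or more and 11 held less, so the following is a description with no test. The 8 came from all sets, 3 and 2 from HFD 1 and HFD 2 and 2 and 1 from control 1 and control 2, and all 8 carried 3 or more goblet markers. Hes1 was listed at 0 in 6 of the 8, and at 1.32 and 3.92 TPM in the other 2. In the 11 cells with less Atoh1, 7 held Hes1, with a median of 23.3 TPM, close to the 26.38 TPM of the 348 cells without Atoh1. The receptors were lower in the 8 cells as well: mean Notch1 was 5.76 TPM in the 8 cells, 62.8 TPM in the 11 and 51.1 TPM in the 348, and mean Notch2 was 1.49, 22.8 and 24.9 TPM. Both ligands ran the other way, with a median Dll1 of 429.56, 5.92 and 0 TPM, and a median Dll4 of 154.69, 1.72 and 0 TPM. Every one of the 8 cells held Dll1, Dll4 and Hes6. Olfm4 had a median of 292.13 TPM in the 8 cells, 4087.12 TPM in the 11 and 9367.44 TPM in the 348, and 5 of the 8 still held Lgr5. The median number of genes per cell was 6265.5, 7102 and 6572.5 in these 3 classes.

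Within the 8 cells Notch1 was listed at 0 in all 5 of the HFD sets, and was held by all 3 of the control sets at 1.62 to 40.48 TPM. Over all Atoh1-holding cells Notch1 was held by 5 of 8 and 1 of 3 in HFD 1 and HFD 2 and by 5 of 5 and 3 of 3 in control 1 and control 2. In a fit of the diet difference within the Atoh1 split, 0 of 11589 genes were called by limma (464 had an unadjusted p under 0.05), and all 8 members had adjusted p values of 0.996 or above, Notch1 with a log2 difference of −1.06 (SE 1.18).

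**Figure D3:**
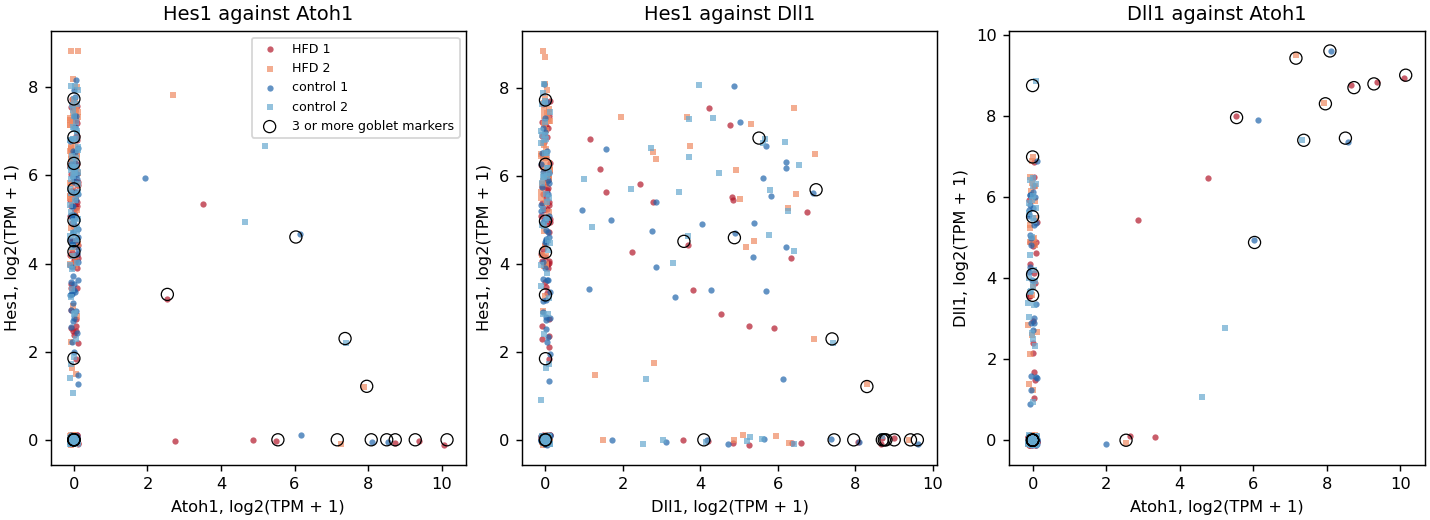
Each point is 1 of 367 cells, with a small random offset so that cells at 0 can be seen, and axes in log2(TPM + 1). Rings mark cells with 3 or more goblet markers. Cells high in Atoh1 lie along the floor of Hes1 and at the top of Dll1, while cells with moderate Dll1 spread over the whole range of Hes1.

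Dll1-holding cells were next set against the other cells, 27 and 24 against 64 and 68 in HFD 1 and HFD 2, and 31 and 29 against 62 and 62 in control 1 and control 2. Atoh1 averaged 83.7 and 16.3 TPM in Dll1-holding cells of HFD 1 and HFD 2 and 24.7 and 7.76 TPM in those of control 1 and control 2. In cells without Dll1 it was 0.230 and 0.0757 TPM in the HFD sets and 0.0487 and 0 TPM in the control sets. Dll4 averaged 26.3 and 15.3 TPM in Dll1-holding cells of HFD 1 and HFD 2 and 12.5 and 7.45 TPM in those of control 1 and control 2, against 1.29, 1.80, 4.23 and 0.524 TPM in the other cells. Atoh1 averaged under 1 TPM in every set without Dll1 and so entered the fit only through the Dll1-holding cells, which makes its log2 difference of 4.46 (SE 0.45) a description. Dll4 was called, with a log2 difference of 2.49 (SE 0.37, limma adjusted p = 0.0359), where 0.12% of 11701 genes were called, 0.103% higher and 0.0171% lower. That call held in 7 of 18 settings, and was lost without HFD 1 (adjusted p = 0.296), HFD 2 (0.349) or control 2 (0.0776), and without the marked secretory cells (log2 0.79, adjusted p = 0.901).

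Hes1 did not pass the test with Dll1. It averaged 32.4 and 53.0 TPM in Dll1-holding cells of HFD 1 and HFD 2 and 38.5 and 52.8 TPM in those of control 1 and control 2, against 47.2, 81.2, 33.0 and 54.0 TPM in the other cells (log2 −0.24, SE 0.18, limma adjusted p = 0.871). Its share was 63.0% and 75% with Dll1 against 85.9% and 73.5% without in HFD 1 and HFD 2, and 74.2% and 72.4% against 71.0% and 72.6% in control 1 and control 2. The mean gap was −4.61 points (SD 12.3, n = 4, exact sign-flip p = 0.875), and it rested on HFD 1, without which it was 1.51 points. Hes6 was higher with Dll1 in all 4 sets by a mean of 0.50 (SE 0.15, limma adjusted p = 0.608). Rbpj was also higher in all 4 sets, by a mean of 0.22 and without a call. Of all genes, 6.65% were higher in every set. No tested member was lower in all 4 sets, where 7.19% of all genes were.

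By Dll1 level, again divided after the values were seen, Hes1 was held by 6 of 15 cells with Dll1 at 100 TPM or more, 73 of 96 cells at 1 to under 100 TPM and 194 of 256 cells under 1 TPM. In the top class these were 1 of 5 and 3 of 4 cells in HFD 1 and HFD 2 and 1 of 4 and 1 of 2 cells in control 1 and control 2, so HFD 2 stood at the 75% of its middle class. Its mean was 13.0, 48.7 and 54.4 TPM in these classes. Atoh1 was held by 10 of 15, 5 of 96 and 4 of 256 cells. The Hes1 share was thus 76.0% in the middle class and 75.8% in cells without Dll1. Of the 15 cells with the most Dll1, 11 carried goblet markers.

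**Figure D4:**
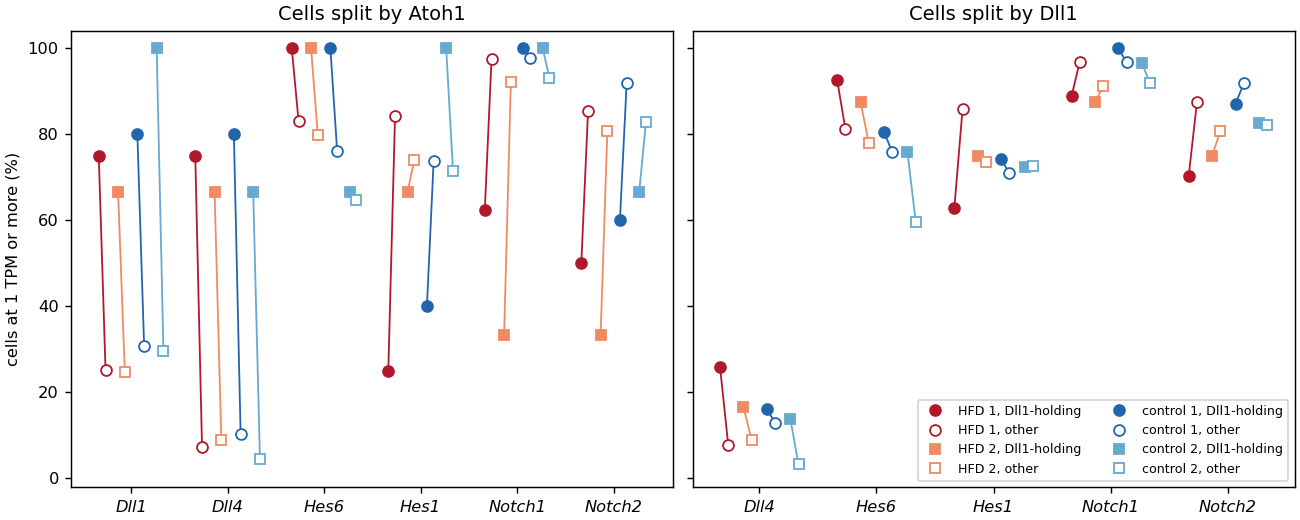
Share of cells at 1 TPM or more, in percent, per set. Filled points are Atoh1-holding (left) or Dll1-holding cells (right), open points the other cells of the same set, joined by a line. With Atoh1, Dll1 and Dll4 are higher and Notch2 lower in all 4 sets. By level, 3.44% of all genes were higher and 14.2% lower with Atoh1 in every set. Hes1 is lower in 3 and higher in control 2. With Dll1, the shares of Hes1 differ little outside HFD 1.

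Counted as shares, Dll1 was held by 15 of 19 Atoh1-holding cells and 96 of 348 others, a mean gap of 52.9 points, and Dll4 by 14 of 19 and 27 of 348, a gap of 64.3 points. Both were higher in 4 of 4 sets (exact sign-flip p = 0.13 each, the smallest possible). Without the marked secretory cells, which leaves 8 Atoh1-holding cells, the gaps were 27.5 points for Dll1 and 33.3 points for Dll4, positive in 3 of 4 sets, with HFD 2 at −26.0 and −10.4 points. Notch2 was held by 10 of 19 Atoh1-holding cells and 297 of 348 others, lower in all 4 sets by a mean of −32.9 points (exact sign-flip p = 0.13), and by −18.9 points, lower in 3 of 4 sets, without the marked cells. By level, 3.44% of all genes were higher and 14.2% lower with Atoh1 in every set. Shares were not counted over all genes. Of the 19 Atoh1-holding cells, 16 held Dll1 or Dll4 and 13 held both. Of the 19, 11 carried 3 or more goblet markers, and none had Paneth markers alone.

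Values of these genes in goblet and Paneth marked cells were as follows. The 23 goblet-marked cells averaged 192 TPM of Dll1, 51.6 TPM of Dll4, 152 TPM of Atoh1 and 24.6 TPM of Hes1. Not all of them held these genes: Dll1 was held by 15, Dll4 by 11, Atoh1 by 11 and Hes1 by 12. The medians were 44.78, 0, 0 and 1.32 TPM. In the 23 cells with Paneth markers alone, Dll4 and Atoh1 were held by 0 of 23 cells, and Dll1 averaged 5.02 TPM. These were 19 HFD and 4 control cells, with Hes1 held by 15 of 19 at a mean of 60.6 TPM in HFD and by 1 of 4 at 3.56 TPM in control. The 321 cells with neither averaged 10.5 TPM of Dll1, 3.09 TPM of Dll4, 0.553 TPM of Atoh1 and 53.2 TPM of Hes1. By stem cell transcripts the cells with Paneth markers alone were close to these. Olfm4 averaged 9822 TPM with Paneth markers alone, 9548 TPM with neither and 5762 TPM in goblet-marked cells. Lgr5 averaged 135, 141 and 99.0 TPM in the same order. These are values over cells and have no test.

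Seen from Hes1, 273 cells held it and 94 did not. Dll1 averaged 6.49 and 14.8 TPM in Hes1-holding cells of HFD 1 and HFD 2 and 12.5 and 12.4 TPM in those of control 1 and control 2, against 99.8, 36.7, 50.2 and 26.6 TPM in the other cells. It was lower in all 4 sets (log2 −1.99, SE 0.39, limma p = 0.000419, adjusted p = 0.327), where 4.52% of all genes were lower in every set. Dll4 (−1.55, SE 0.53) and Atoh1 (−2.21, SE 1.09) were lower in 3 of 4 sets. In control 2 both ran the other way, and Atoh1 was 0 in the cells without Hes1. No gene was called of 11695 tested by limma, and 953 had an unadjusted p under 0.05. Rbpj was higher with Hes1 in all 4 sets by 0.47, without a call, where 11.3% of all genes were higher in every set. Without the marked secretory cells the Dll1 difference was −0.49. Dll1 was called in 1 of 18 settings, the interquartile range of genes per cell, where it was lower with Hes1 (limma adjusted p = 0.0458). Among 63 cells with Hes1 at 100 TPM or more, 1 held Atoh1, 2 held Dll4 and 16 held Dll1 (1.59%, 3.17% and 25.4%). Of all cells, these 63 included, 5.18%, 11.2% and 30.2% did. This level was also chosen after the values were seen and the cells are pooled over sets, so these shares are a description with no test.

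Diet was compared over sets. Of the 9 members that passed a mean of 1 TPM (Hes5 did not), 0 passed limma's test at an adjusted p of 0.05, where 59 of 11667 genes (0.506%) did and 1294 had an unadjusted p under 0.05. Hes6 and Notch2 were the 2 tested members whose sets did not overlap, where the sets of 41.8% of all genes did not. Hes6 showed a log2 fold change of 0.95 (SE 0.24, limma adjusted p = 0.0921), about the same in cells without Atoh1 (0.96, SE 0.24, adjusted p = 0.0824). Its share of holding cells was 11.4 points higher in HFD (exact permutation p = 0.33, the smallest possible), and 5.11 points without control 2 or 17.7 points without control 1. Averaging the logs of single cells in place of the log of the mean gave 1.29 with an adjusted p of 0.0418, and other scalings gave 0.77 and 0.81 without a call.

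The S phase score, the mean log2(TPM + 1) of 12 genes of DNA replication, was 5.37 and 5.25 in HFD 1 and HFD 2 and 4.49 and 4.07 in control 1 and control 2, and moved with diet as Hes6 did. Hes6 differed by 0.82 among cells at or below the median of that score and by 1.07 among those above it, a division added after seeing the data, with no call in either. Its correlation with the score within sets averaged 0.11. Cells with 3 or more enterocyte markers numbered 70 and 77 in the HFD sets and 37 and 50 in the control sets, and the part of that difference in Hes6 was not tested beyond the 21 cells with at most 1 such marker, where Hes6 differed by 1.55 without a call.

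**Figure D5:**
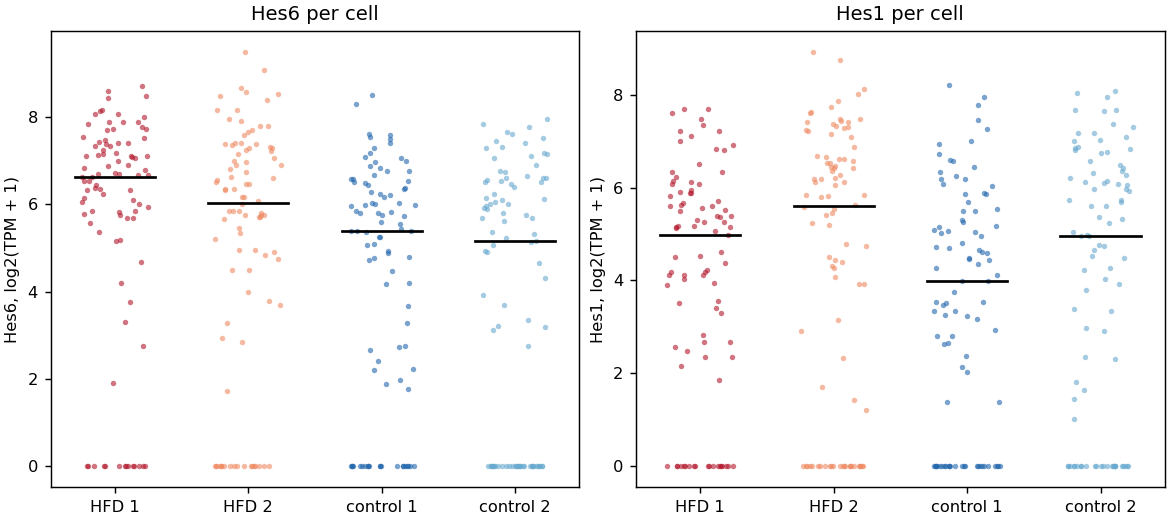
Hes6 (left) and Hes1 (right) in each cell as log2(TPM + 1), with the median of each set as a bar. Hes6 medians are higher in HFD 1 and HFD 2 than in both control sets. Hes1 medians also lie higher in the HFD sets (30.56 and 47.5 TPM) than in the control sets (14.75 and 29.84 TPM), with wide overlap of single cells. Those of HFD 1 and control 2 are close together. By mean level the sets of 41.8% of all genes did not overlap, and medians were not counted over all genes.

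No other member passed the diet test. Atoh1 had a log2 fold change of 1.05 (SE 0.53, limma adjusted p = 0.471), which changed with the set left out: −0.10 without HFD 1, and called without HFD 2 (2.20, adjusted p = 0.000371) or control 1 (1.76, adjusted p = 0.0234). Dll4 gave 0.52 (SE 0.42), Hes1 0.37 (SE 0.28), Dll1 0.24 (SE 0.29), Notch1 0.14 (SE 0.29), Jag1 0.13 (SE 0.52), Rbpj −0.34 (SE 0.34) and Notch2 −0.45 (SE 0.29), with adjusted p values of 0.572 to 0.953. The median of the 9 was 0.24, against 0.13 for all genes. In cells without Atoh1, Dll1 was −0.49 (SE 0.34, adjusted p = 0.603) and Dll4 −0.25 (SE 0.49, adjusted p = 0.891), where 0.465% of 11618 genes were called and 0 of 7 members.

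Of 42 Notch pathway genes, 30 were tested for diet and 0 called, where 0.506% of all genes were called, with a median of −0.11. Of 24 secretory fate genes, 15 were tested and 1 was called, Spdef, a factor of goblet and Paneth maturation, at 9.65 and 8.35 TPM in HFD 1 and HFD 2 and 2.71 and 0.123 TPM in control 1 and control 2 (log2 2.29, SE 0.48, limma adjusted p = 0.0216). Its call was lost without control 2 (1.43, adjusted p = 0.110) and with the cell-wise logs (0.15, adjusted p = 0.722), it held in 6 of the 18 settings that gave a value, and without the marked secretory cells it was below the filter. The summed mean TPM of the 8 goblet markers was 627 and 538 in HFD 1 and HFD 2 and 501 and 75.7 in control 1 and control 2, that of the 8 Paneth markers was 4820 and 426 in the HFD sets and 66.4 and 32.8 in the control sets, and their part in the Spdef difference was not tested.

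Across single cells, the mean of the 4 within-set Pearson correlations of log2(TPM + 1) was taken as a measure of likeness, as a description. Among the 10 genes, Atoh1 had a mean r of 0.65 with Dll4 and 0.44 with Dll1, and Dll1 had 0.36 with Dll4. Atoh1 had −0.18 with Hes1, at −0.39 and −0.15 in HFD 1 and HFD 2 and −0.19 and 0.02 in control 1 and control 2. Dll1 had −0.12 with Hes1. Atoh1 had −0.25 with Notch1 and −0.20 with Notch2. Outside these pairs the comparison was limited to genes held by at least 10% of cells in every set, 10295 genes (10296 for Atoh1), which leaves out Atoh1 and Dll4 themselves. Within that limit Atoh1 was most like Kit, a receptor tyrosine kinase (mean r 0.53), then Dll1, Ccl9 (0.44, with −0.01 in control 2), Rab15 (0.41) and Rasa4 (0.40). It was least like Olfm4 (−0.52). Dll1 had its highest values with Kit (0.36), Rnase1 (0.28), Arhgap24 (0.27), Rab15 (0.27) and Fgfr2 (0.26). For Hes1 the highest were Glud1 (0.23), Yars2 (0.22), Tomm70a (0.21), Lamp1 (0.20) and Pgrmc1 (0.19), and for Hes6 Cwc22 (0.24), Gtf3c5 (0.21), Cox17 (0.20), Atf4 (0.19) and Rfc4 (0.19). The Hes1 and Hes6 values are weak in sparse data and no relation is read from them.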

How the data were processed

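TPM per gene and cell was used as deposited by the authors. Per the submitters' processing notes, Bowtie2, RSEM and the mouse build mm10 were used; no versions and no gene annotation are named there. The TPM of a cell added up to 999999.16 at least and 1000000.6 at most. Depth per cell is unknown, and intervals and limits on shares cover counting error only. Cells with fewer than 2000 genes above 0 were left out (8 of 375), and no 2 cells held identical values. A cell held a gene at 1 TPM or more. Mean TPM per set was tested as log2(mean + 1), which understates changes of low genes, with limma 3.58.1 (R 4.3.3) with a mean-variance trend on genes averaging 1 TPM or more over the groups fitted, two-sided, Benjamini-Hochberg adjusted over all genes. The fit of the diet difference within the Atoh1 split had no trend. Cells split by Atoh1, Dll1 or Hes1 kept the set as a block. Shares carry 95% Clopper-Pearson intervals. Exact tests flipped signs over 4 sets or permuted 2 sets against 2. Python 3.11.15 with SciPy 1.17.1 was used for these. Promoter sequences are RefSeq's (GRCm38.p6).

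The genes, marker lists and rules were chosen with earlier results of these data known. Named beside the 10 genes were called genes of the Notch pathway and secretory fate lists, the 5 largest rises and falls with Atoh1, and the 5 genes most like Hes1, Atoh1, Dll1 and Hes6. The limma steps were tested on simulated data. Alternatives covered pseudocount, filters, scaling, trend, the replicate block, holding levels, marked cells and each set left out.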

Additional observations from a re-analysis of the deposited data

Results flagged for a closer look

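Each of the following 4 results moved one way in both HFD sets and the opposite way in both control sets. They were picked for that pattern from all tested members in the splits by Atoh1, Dll1 and Hes1 and from all pairs compared as shares. With so few sets, some results of so many can show it by chance. The share of cells holding Notch1 was lower in Atoh1-holding than in other cells in the HFD sets and higher in the control sets, with −51.5 points as the gap of HFD minus that of control. The share holding Notch1 by Dll1 did the same, by −9.75 points. The share holding Rbpj by Atoh1 differed by −31.6 points. These differences of shares were not tested. Without the cells carrying goblet or Paneth markers the opposite directions were not seen: the Notch1 gap by Atoh1 was 2.90 and 7.79 points in HFD 1 and HFD 2 and 1.20 and 7.14 points in control 1 and control 2, and that by Dll1 3.70, 3.62, 1.69 and 4.2 points in the same sets. The Rbpj gap by Atoh1 was then positive in 2 of 4 sets. The level of Rbpj in Atoh1-holding against other cells was lower in both HFD sets and higher in both control sets, with a log2 difference of −1.46 between the diets (SE 0.97, limma adjusted p = 0.996), on 8 and 3 Atoh1-holding cells of HFD 1 and HFD 2 and 5 and 3 of control 1 and control 2.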

How the results depend on the processing

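The few Atoh1-holding cells and 2 sets per diet limit every statement. The divisions by S phase score and enterocyte markers were chosen after seeing the data. In the diet fits that leave out 1 set, the lone set is assumed to vary like the others. Of the alternative values for single genes, 675 kept their direction and their side of the threshold, 83 were no longer called, 6 became called and 45 changed sign, all 45 of them values that were not called under the settings reported apart from Selm.

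Calls by diet over all cells (59) numbered 0 with no filter on low genes, 6 with Rn45s left out or limma without trend, 14 with no filter on cells, 18 in the interquartile range of genes per cell and on each side of the S phase median, 25 without marked secretory cells, 0 with at most 1 enterocyte marker, 635 with the replicate block, and 69 to 146 with 1 set left out. In cells without Atoh1 (54) they numbered 0, 7, 4, 12, 13, 26, 9 and 21 in the same order of low genes, Rn45s, no trend, cell filter, interquartile range, marked cells and S phase score at or below and above the median, 31 with cell-wise logs, 1009 with the replicate block, and 45 to 155 with 1 set left out. Calls with Atoh1 (17) numbered 7 with a pseudocount of 0.1, 0 with no filter on low genes, without marked cells or without trend, 506 in the interquartile range, of which 502 were lower, 69 with no replicate block, and 2 to 45 with 1 set left out. With Dll1 (14) they numbered 0 with no filter on low genes, without marked cells or without trend, 2 with cell-wise logs or in the interquartile range, 6 with no replicate block, 8 at a holding level of 10 TPM, and 3 to 29 with 1 set left out. With Hes1 (0) they numbered 3 in the interquartile range, all lower and Dll1 among them, and 3 at 10 TPM. The fit of diet within the Atoh1 split stayed at 0 in its 14 alternatives. The cause of these shifts was not tested.

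Replicate numbers do not pair the sets by any label, and deviations of the number 1 sets correlated at 0.233 with only 2 pairs. Under the replicate block Hes6 was called by limma (adjusted p = 0.00232 over all cells and 1.63e-05 without Atoh1), and the counts rose as above.

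Signs turned as follows, and no value of the turned sign was called. For diet over all cells, Notch1 was −0.039 with Rn45s left out, −0.66 with at most 1 enterocyte marker and −0.29 to 0.57 with 1 set left out. Dll1 was −0.19 with cell-wise logs, −0.18 in the interquartile range and −0.11 without marked cells. With 1 set left out, Dll4 ran from −0.024 to 1.07, Hes1 from −0.013 to 0.76, Atoh1 from −0.096 to 2.20 and Rbpj from −0.78 to 0.095. Jag1 was −0.051 and Rbpj 0.064 at or below the S phase median, and Hes1 −1.27 and Rbpj 1.18 with at most 1 enterocyte marker. In cells without Atoh1, Notch1 was −0.032 with Rn45s left out, −0.0076 in the interquartile range and −0.27 to 0.57 with 1 set left out. Dll4 was 0.0065 with cell-wise logs, 0.11 without marked cells, 0.10 at 10 TPM, 0.39 at or below the S phase median and −0.73 to 0.24 with 1 set left out. Rbpj was 0.15 at or below the S phase median and −0.74 to 0.13 with 1 set left out.

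With Atoh1 and without marked cells, Notch2 was 0.13, Hes6 −0.27 and Selm −0.54. Jag1 was −0.77 with a pseudocount of 0.1, −0.16 at 10 TPM and −0.12 to 0.64 with 1 set left out, and Rbpj −0.72 to 0.094. With Dll1, Notch1 was −0.17 at 10 TPM, Notch2 −0.18 to 0.030 with 1 set left out, and Jag1 0.059 without marked cells, 0.25 at 10 TPM and −0.25 to 0.25 with 1 set left out. With Hes1, Notch1 was 0.13 with cell-wise logs, 0.016 with no filter on cells, 0.0010 at 10 TPM and −0.069 to 0.024 with 1 set left out. Notch2 was 0.055 with cell-wise logs and −0.26 to 0.018 with 1 set left out, and Jag1 −0.010 to 0.31.

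Among shares, that of Dll4 by diet was −0.461 points at 10 TPM and −1.95 to 5.43 with 1 set left out, Atoh1 −1.08 to 4.45 and Rbpj −6.51 to 2.91. The gap of Hes1 by Dll1 ran from −7.22 to 1.51, and the diet difference of the gap of Hes1 by Atoh1 from −61.8 to 0.450.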
